A study of Mus musculus with 16 samples.

Results

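Endocrine cells store peptide hormones in dense-core granules and release them on a calcium signal. The 82 genes described here encode the proteins of that last step, and they were taken by gene symbol from the 24063 genes present in both deposited tables: the small GTPases Rab3 and Rab27, their effectors, the Unc13 and Cadps priming factors, synaptotagmins, complexins, Stxbp proteins, syntaxins, Vamps and Snaps. A symbol places a gene in a family and says nothing of its place in the cell, so members that act elsewhere, such as Stx17 of autophagy and Snap91 of clathrin coats, came in with the others. Rab27a and Sytl4, the granule GTPase and its effector granuphilin, were the 2 genes that marked the set.

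Rab27 proteins sit on the granule membrane in their GTP form and bind effectors of the Sytl, Exph5, Myrip and Rph3al kind, which hold the granule at the cortex. Rab3 proteins work beside them through partners such as Rims and Rph3a. Doc2a, Doc2b and all Rims genes were grouped with the effectors by symbol, which does not show that each binds a Rab. Unc13 and Cadps proteins then prime the granule, and SNARE proteins (a syntaxin and a Snap on the plasma membrane, a Vamp on the granule) zip together with the help of Stxbp proteins and complexins, with synaptotagmins as the calcium sensors.

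RNA was measured in AtT-20 cells, a mouse pituitary tumour line of corticotropes, the cells that release corticotropin. Cells expressing 3x flag-Pax7 and cells expressing 3x flag-Neo, both without treatment, gave 2 libraries each. Pax7 is the pioneer transcription factor of the melanotrope, the other pituitary cell that makes pro-opiomelanocortin. Cells expressing 3x flag-ER-Pax7, a Pax7 fusion that is inducible with 4-hydroxytamoxifen, gave 3 libraries each without induction (0 h) and after 12, 24 and 96 h of the compound. No library of 4-hydroxytamoxifen on cells lacking ER-Pax7 was analysed here, so the compound and the fusion cannot be told apart, and the promoter that drives each construct is not given in the sources used here. Nothing in the labels says that replicates were separate cultures; the p-values then speak only of the variation among these libraries, which may be technical.

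The Pax7 and Neo table gives FPKM over whole gene bodies, introns included, and the ER-Pax7 table gives reads over exons scaled to a common library total, called scaled exon reads here. Values below were further divided by TMM factors, no level was set across the 2 tables, and a gene is said to rise, fall or be called where limma gave an adjusted p under 0.05 over all genes tested. A log2 fold is on the log2(value + pseudocount) scale, with a pseudocount of 0.1 FPKM or 1 scaled exon read, and understates the change of low genes. Read mates recovered from the scaled values numbered 61.4 M to 88.7 M (M, mega) per ER-Pax7 library. Pax7 itself averaged 2.32 ± 0.0537 FPKM in Pax7 cells and 0.00522 ± 0.00739 FPKM in Neo cells (SD, n = 2 each), and in ER-Pax7 cells it was already at 1724 ± 39.3 scaled exon reads before induction (n = 3). The 7 corticotrope markers were above 0 in every library, and of 8 markers of other pituitary lineages up to 5 were at 0 in a library. Ribosomal Rn45s took 2.34% of the reads of 12 h replicate 2 and between 0.753% and 1.26% of the other 11 ER-Pax7 libraries.

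Sequence around the start sites was read for some of the genes that the results turn on. RefSeq promoter windows of GRCm38.p6, 250 bases before to 50 bases after a start, were matched by symbol to 62 of the 82 members, in 77 windows. Rab27b and Sytl2 had no such window, so their sequence was not read. Rab27a has 2 such windows, and they are shown because the 2 deposited tables measure it from these 2 different starts: the exon table from the first and the gene-body table from the second. Sytl4 and Exph5 are shown as Rab27 effectors that moved in opposite directions. All run 5′ to 3′ on the gene's own strand, and capitals mark CACGTG, the only searched motif found in them.
Rab27a, first start, chr9:73044560-73044859, plus strand: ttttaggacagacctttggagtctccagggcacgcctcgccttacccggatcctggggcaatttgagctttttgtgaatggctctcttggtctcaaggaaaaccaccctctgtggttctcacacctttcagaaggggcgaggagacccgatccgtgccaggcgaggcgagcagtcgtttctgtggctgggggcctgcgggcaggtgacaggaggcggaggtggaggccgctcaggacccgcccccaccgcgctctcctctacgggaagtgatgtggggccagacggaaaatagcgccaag
Rab27a, second start, chr9:73063898-73064197, plus strand: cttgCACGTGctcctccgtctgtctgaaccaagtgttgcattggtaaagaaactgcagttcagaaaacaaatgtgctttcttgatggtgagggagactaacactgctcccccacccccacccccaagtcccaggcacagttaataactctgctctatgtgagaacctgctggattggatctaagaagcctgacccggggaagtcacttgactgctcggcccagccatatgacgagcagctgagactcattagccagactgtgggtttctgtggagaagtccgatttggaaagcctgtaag
Sytl4, chrX:133981763-133982062, minus strand: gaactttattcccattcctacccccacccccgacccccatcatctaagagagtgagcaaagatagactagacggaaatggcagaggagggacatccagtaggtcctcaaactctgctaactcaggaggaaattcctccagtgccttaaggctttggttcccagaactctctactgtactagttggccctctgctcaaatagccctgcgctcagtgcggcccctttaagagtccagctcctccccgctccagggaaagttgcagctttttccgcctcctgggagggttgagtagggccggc
Exph5, chr9:53301420-53301719, plus strand: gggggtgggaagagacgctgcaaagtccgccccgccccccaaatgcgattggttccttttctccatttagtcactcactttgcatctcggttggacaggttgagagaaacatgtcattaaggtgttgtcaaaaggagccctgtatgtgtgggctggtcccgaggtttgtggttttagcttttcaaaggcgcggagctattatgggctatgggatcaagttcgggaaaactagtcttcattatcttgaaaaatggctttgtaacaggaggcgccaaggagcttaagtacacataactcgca

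The second Rab27a window begins CACGTG 246 bases before the start, and neither the first Rab27a window nor those of Sytl4 and Exph5 holds any of the 4 motifs searched on both strands. These were TAATTA (a homeodomain core), GTCACGC (a paired domain core), TGACGTCA (a cAMP response element) and CACGTG (an E-box). TAATTA stood in 1.30% of the members' windows and in 5.29% of all 32851 promoter windows, and GTCACGC in 1.30% and 2.09%. TGACGTCA was in none of the 77, against 1.79% of all windows, and CACGTG in 14.3% against 7.15%. The CACGTG share of the members counts overlapping windows of Syt6 that hold the same site. It also counts windows of Cadps2, Cplx3 and Mlph, which reached the tested level in neither deposited table. The single TAATTA was in a window of Syt6 and the single GTCACGC in that of Unc13a. A match is a description of the letters, and no match says only that they are not in this window.

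Rab27a rose in Pax7 cells and in ER-Pax7 cells at every time after induction, and its paralogue Rab27b fell in both. Rab27a, the granule GTPase, lies on chromosome 9 from 73044810 to 73097614 (mm10, plus strand). It had 5.79 and 6.17 FPKM in Pax7 cells, against 2.69 and 2.66 FPKM in Neo cells. The 2 Pax7 libraries were both above the Neo libraries, and the log2 fold was 1.13 (SE 0.0429, limma adjusted p = 0.00182). In the ER-Pax7 libraries it had 952, 909 and 955 scaled exon reads at 0 h, 1623, 1580.1 and 1499 at 12 h, 1496, 1542 and 1700.2 at 24 h, and 1617, 1630.0 and 1576 at 96 h. Every induced library was above every library at 0 h, and the 3 induced times overlapped each other. The log2 fold against 0 h was 0.74 at 12 h (limma adjusted p = 2.37e-10), 0.75 at 24 h and 0.78 at 96 h (SE 0.0429 each). The step of 24 h against 12 h was 0.01 and that of 96 h against 24 h 0.03, both with an SE of 0.0429 and neither called.

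Rab27b encodes the second Rab27, which marks granules of several endocrine and exocrine cells. It had 0.115 and 0.119 FPKM in Pax7 cells, against 0.222 and 0.219 FPKM in Neo cells, a log2 fold of -0.56 (SE 0.0628, limma adjusted p = 0.00824) close to the 0.1 FPKM at which a gene was tested. In the ER-Pax7 libraries its scaled exon reads were 457, 439 and 478 at 0 h, 265, 265 and 268 at 12 h, 217, 220.3 and 229 at 24 h, and 169, 181 and 166 at 96 h. No library of one time overlapped a library of another. The log2 fold against 0 h was -0.78 at 12 h, -1.04 at 24 h and -1.41 at 96 h (SE 0.0466, limma adjusted p = 6.3e-15 at 96 h).

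Rab27b was the only member called for 24 h against 12 h, with a log2 fold of -0.26 (SE 0.0466, limma adjusted p = 0.018), when 0.158% of all genes tested were called, 0.0724% higher and 0.0856% lower. That call was lost without replicate 1 or 2 of 24 h or replicate 1 or 3 of 12 h (adjusted p between 0.076 and 0.148), and with those 2 groups alone in the model (adjusted p = 0.0619). It went on falling at 96 h against 24 h (log2 fold -0.37, SE 0.0466, limma adjusted p = 1.96e-05).

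**Figure D1:**
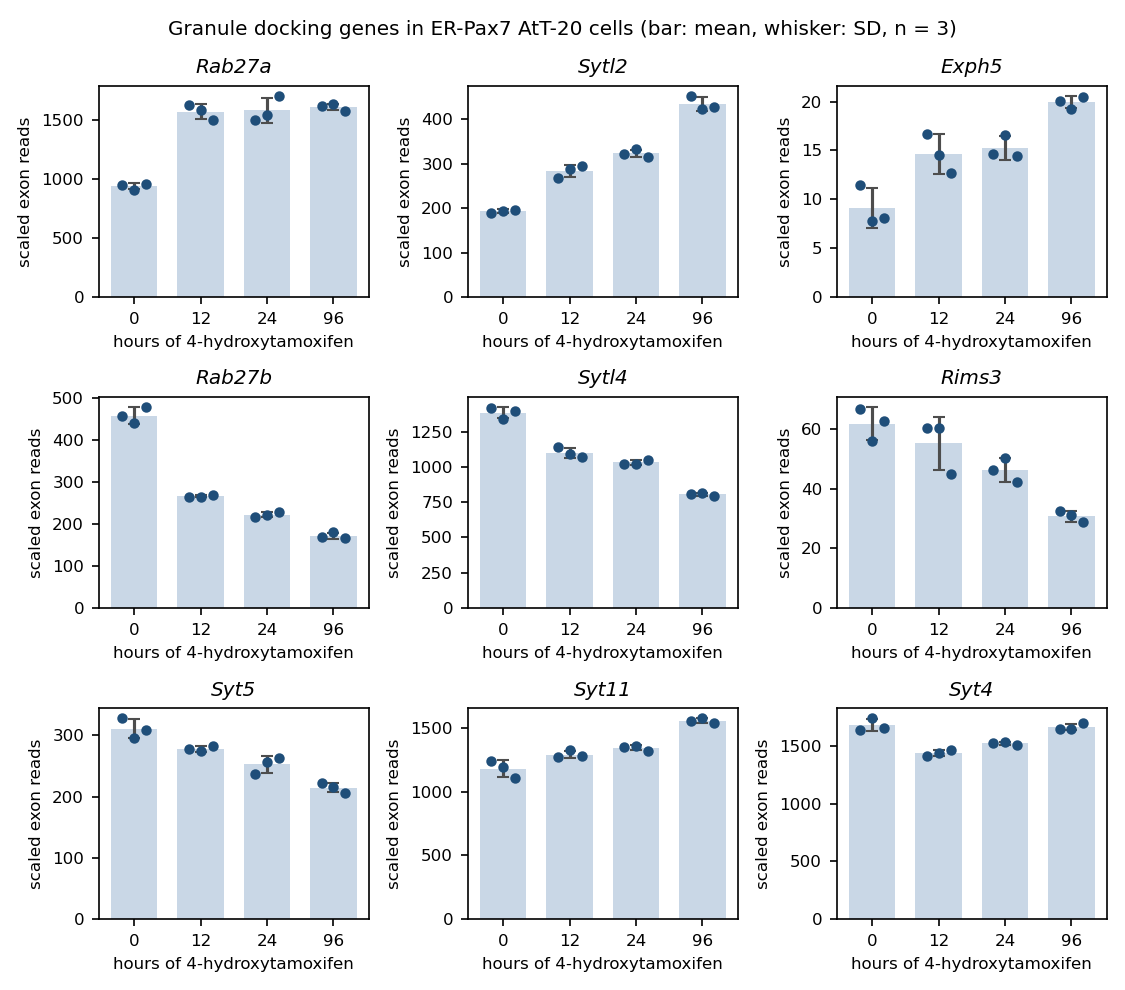
Scaled exon reads (y axis, from 0) of 9 members in ER-Pax7 cells against hours of 4-hydroxytamoxifen (x axis, 0 h without induction), with points for the 3 libraries, bars for the mean and whiskers for the SD. Rab27a reaches a mean of 1567 at 12 h and stays near it, Rab27b and Sytl4 step down to 172 and 805 at 96 h, Sytl2 climbs to 435, and Syt4 dips to 1441 at 12 h and is back at 1665 at 96 h.

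Per kilobase of exon, the pair moved towards Rab27a. Of the summed Rab27a and Rab27b level per kilobase, Rab27a made up 81.8% ± 0.339 before induction, 92.8% ± 0.321 after 12 h, 93.9% ± 0.22 after 24 h and 95.3% ± 0.142 after 96 h (SD, n = 3 each). The summed level per kilobase was 360.2 ± 10.7 before induction, 529.8 ± 19.3 after 12 h, 527 ± 34.5 after 24 h and 529 ± 9.86 after 96 h. The sum thus stood level over the 3 induced times while the share of Rab27b went down. Among all 82 members ranked by level per kilobase, Rab27a stood 5th at 96 h and 15th at 0 h, and Rab27b 53rd at 96 h and 37th at 0 h.

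The 4 Rab3 genes, whose GTPases share effectors with Rab27, had smaller log2 folds, most of them negative at 96 h. Rab3a, the main Rab3 of secretory granules, had 16.1 and 15.9 FPKM in Pax7 cells, against 11.2 and 11.8 FPKM in Neo cells (log2 fold 0.47, SE 0.0391, limma adjusted p = 0.00519). In ER-Pax7 cells it averaged 487 ± 17.5 scaled exon reads at 96 h and 444 ± 28.3 at 0 h, a log2 fold of 0.13 (limma adjusted p = 0.0288) that lost its call without replicate 2 or 3 of 96 h or replicate 3 of 0 h (adjusted p up to 0.183). Rab3b averaged 23.1 ± 2.73 scaled exon reads at 96 h and 31.8 ± 4.45 at 0 h (log2 fold -0.44, SE 0.122, limma adjusted p = 0.00751), and without replicate 1 of 0 h the adjusted p was 0.0529.

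Rab3c averaged 276 ± 4.48 scaled exon reads at 96 h and 338 ± 7.17 at 0 h (log2 fold -0.29, limma adjusted p = 1.51e-05), and Rab3d 510.4 ± 4.77 at 96 h and 616 ± 17.8 at 0 h (log2 fold -0.27, limma adjusted p = 1.05e-05). All 6 Rab3 and Rab27 genes were thus called at 96 h, 2 higher and 4 lower, when 33.8% of all genes were called (16.5% higher, 17.3% lower). In Pax7 against Neo cells Rab3c and Rab3d had log2 folds of 0.16 and 0.02 and were not called, and Rab3b was under the tested level. Exons of an antisense gene overlap 9.4% of the Rab3b exons, and reads were counted without strand.

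Among the Rab27 effectors, granuphilin went down and Sytl2 and Exph5 went up. Sytl4 (granuphilin) docks insulin granules by binding Rab27a and a syntaxin, and lies on the X chromosome from 133936385 to 133981812 (mm10, minus strand). It had 1.66 and 1.72 FPKM in Pax7 cells, against 2.68 and 2.73 FPKM in Neo cells, with no overlap and a log2 fold of -0.65 (SE 0.0353, limma adjusted p = 0.00283). Its scaled exon reads were 1418, 1341 and 1393 at 0 h, 1138, 1089 and 1069.8 at 12 h, 1023, 1021 and 1049 at 24 h, and 804, 814 and 796 at 96 h. Each time lay wholly under the one before. The log2 fold against 0 h was -0.33 at 12 h, -0.42 at 24 h and -0.78 at 96 h (SE 0.0344, limma adjusted p = 5.82e-13 at 96 h), and 96 h against 24 h gave -0.36 (limma adjusted p = 7.69e-07).

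Sytl2, an effector that tethers Rab27a vesicles to the plasma membrane, had 189, 195 and 196 scaled exon reads at 0 h, 268, 288 and 295 at 12 h, 322, 332 and 315 at 24 h, and 452, 424 and 429 at 96 h. The 4 times did not overlap, and the log2 fold against 0 h was 0.55, 0.74 and 1.17 at 12, 24 and 96 h (SE 0.0456, limma adjusted p = 7.53e-14 at 96 h), with a further 0.43 for 96 h against 24 h (limma adjusted p = 2.78e-06). In the constitutive cells Sytl2 had 0.201 and 0.179 FPKM with Pax7, against 0.141 and 0.167 FPKM with Neo. That log2 fold of 0.19 (SE 0.0887, limma adjusted p = 0.171) was not called. The FPKM of Sytl2 were counted over a gene body of 23738 bases. Its exon reads were of a different transcript, from 90302355 to 90410719 on chromosome 7 (mm10), so the 2 systems were not read over the same region.

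Per kilobase of exon, Sytl4 made up 81.8% ± 0.324 of the summed level of the 5 Sytl genes before induction, 74.1% ± 0.804 after 12 h, 71.4% ± 0.714 after 24 h and 62.0% ± 1.03 after 96 h (SD, n = 3 each). Sytl2 made up 9.06% ± 0.38, 15.2% ± 1.07, 17.7% ± 0.602 and 26.5% ± 0.608 at the same times. The summed Sytl level per kilobase was 453 ± 13.0 before induction, 397 ± 8.65 after 12 h, 387 ± 2.88 after 24 h and 348 ± 6.03 after 96 h. Sytl4 was therefore still the leading Sytl transcript at 96 h, in a sum that was lower than at 0 h.

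Exph5 (Slac2-b), a large Rab27 effector, was a low transcript with 11.4, 7.83 and 8.09 scaled exon reads at 0 h, 16.7, 14.5 and 12.7 at 12 h, 14.7, 16.6 and 14.4 at 24 h, and 20.1, 19.3 and 20.5 at 96 h. All induced libraries were above all libraries at 0 h. The log2 fold was 0.64 at 12 h (limma adjusted p = 0.00635), 0.70 at 24 h and 1.07 at 96 h (SE 0.141, limma adjusted p = 5.93e-06), and the 12 h call was lost without replicate 1 of 12 h (adjusted p = 0.0503). In the constitutive cells it had 0.0478 and 0.0298 FPKM with Pax7, against 0.0101 and 0.0209 FPKM with Neo, under the level at which a gene was tested.

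Rims3, a short member of the family of Rab3-interacting active zone proteins, had 0.268 and 0.318 FPKM in Pax7 cells, against 0.778 and 0.794 FPKM in Neo cells. With a log2 fold of -1.18 (SE 0.0787, limma adjusted p = 0.00383) it had the lowest log2 fold of the members in that comparison, on the scale with 0.1 FPKM added; by the plain ratio of means Doc2b (0.365) was a little under Rims3 (0.372). Its scaled exon reads were 66.7, 55.8 and 62.8 at 0 h, 60.3, 60.4 and 44.8 at 12 h, 46.2, 50.2 and 42.4 at 24 h, and 32.4, 31.0 and 28.8 at 96 h. The libraries at 12 h overlapped those at 0 h and the later ones did not. The log2 fold was -0.17 at 12 h (not called), -0.41 at 24 h (limma adjusted p = 0.0136) and -0.98 at 96 h (SE 0.108, limma adjusted p = 5.22e-07), with -0.57 for 96 h against 24 h (limma adjusted p = 0.00119). The 24 h call was lost without replicate 3 of 24 h or replicate 1 of 0 h (adjusted p between 0.06 and 0.066).

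Doc2b, a calcium-binding C2-domain protein of the Doc2 family, had 0.115 and 0.129 FPKM in Pax7 cells, against 0.344 and 0.324 FPKM in Neo cells (log2 fold -0.97, SE 0.07, limma adjusted p = 0.00433). In ER-Pax7 cells the log2 fold against 0 h was -0.30 at 12 h (limma adjusted p = 0.0282), -0.29 at 24 h (limma adjusted p = 0.0209) and -0.18 at 96 h (limma adjusted p = 0.0897, not called). Its means were 78.0 ± 6.02 scaled exon reads before induction, 63.2 ± 3.05 after 12 h, 63.7 ± 2.21 after 24 h and 68.7 ± 6.51 after 96 h. Both of its calls were lost without replicate 1 or 3 of 0 h, the 12 h call also without replicate 2 or 3 of 12 h and the 24 h call also without replicate 1 or 2 of 24 h (adjusted p up to 0.117). An opposite-strand transcript overlaps 5.5% of its exons.

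Among the effectors called in the constitutive cells and at no time against 0 h in ER-Pax7 cells, a difference that was not tested, were Rph3al and Sytl1. Rph3al (noc2), a Rab effector of endocrine granules, had 0.268 and 0.308 FPKM in Pax7 cells, against 0.172 and 0.178 FPKM in Neo cells (log2 fold 0.50, limma adjusted p = 0.0159). Sytl1 had 1.15 and 1.32 FPKM in Pax7 cells, against 0.940 and 0.919 FPKM in Neo cells (log2 fold 0.37, limma adjusted p = 0.0281). At 96 h against 0 h their log2 folds were 0.15 and -0.05, and neither was called. The FPKM of Rph3al were counted over a gene body of 26166 bases. Its exon reads were of a different transcript, from 75830992 to 75911059 on chromosome 11 (mm10). Both constitutive calls were lost without Pax7 replicate 2, Neo replicate 1 or Neo replicate 2 (adjusted p between 0.0628 and 0.0992). Of the 16 genes in the effector group, Rph3a, Mlph, Rims1 and Sytl5 did not reach the tested level in either table.

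**Figure D2:**
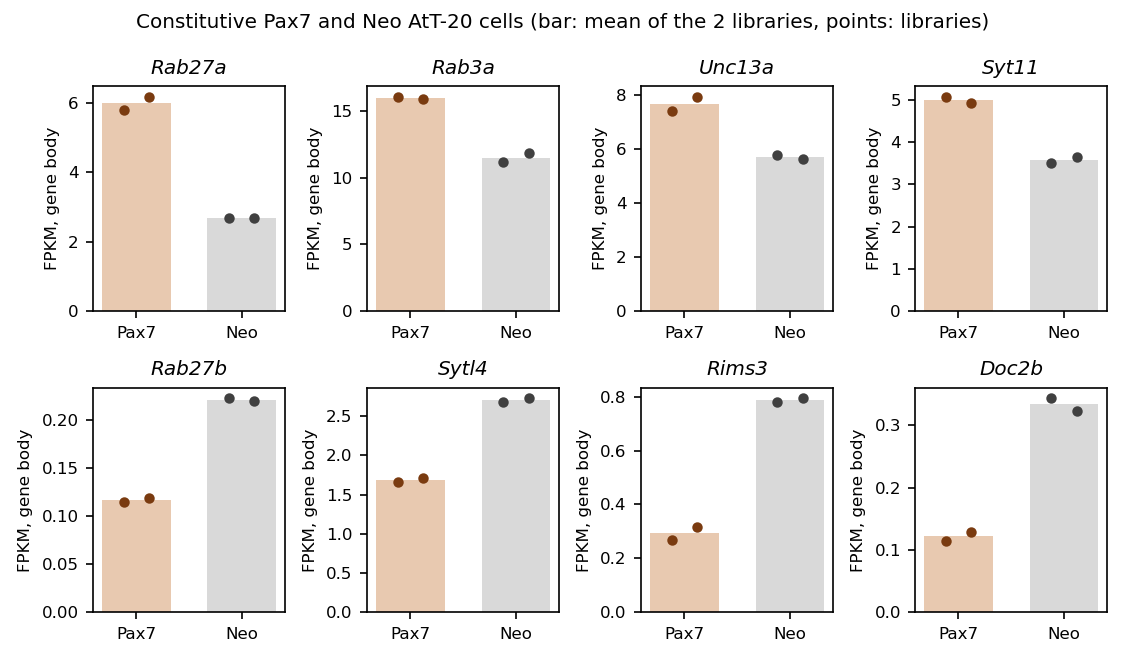
FPKM over gene bodies (y axis, from 0) of 8 members in constitutive Pax7 cells (left in each panel) and Neo cells (right), with points for the 2 libraries of each group and bars for their mean. Rab27a, Rab3a, Unc13a and Syt11 are higher in Pax7 cells, with means of 5.98, 16.0, 7.67 and 5.0 FPKM, and Rab27b, Sytl4, Rims3 and Doc2b are lower, with 0.117, 1.69, 0.293 and 0.122 FPKM; the 2 groups do not overlap in any panel.

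The synaptotagmins, calcium sensors and related C2-domain proteins of granules, divided. Of 13 tested in the ER-Pax7 table, 8 were called at 96 h against 0 h, 3 higher and 5 lower, when 33.8% of all genes were called. Of 11 tested in the constitutive cells, 3 were called, 2 higher and 1 lower, when 36.6% of all genes were. Syt5, a calcium sensor found on dense-core granules, had 5.61 and 5.32 FPKM in Pax7 cells, against 8.77 and 9.07 FPKM in Neo cells (log2 fold -0.70, SE 0.0412, limma adjusted p = 0.00332). Its scaled exon reads were 328, 296 and 308 at 0 h, 277, 274 and 283 at 12 h, 237, 257 and 263 at 24 h, and 222, 216 and 206 at 96 h. The groups did not overlap, and the log2 fold against 0 h was -0.16 at 12 h (not called), -0.30 at 24 h and -0.53 at 96 h (SE 0.0502, limma adjusted p = 6.18e-08).

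Syt11, a synaptotagmin that does not bind calcium, went the other way. It had 5.08 and 4.92 FPKM in Pax7 cells, against 3.51 and 3.65 FPKM in Neo cells (log2 fold 0.47, SE 0.0372, limma adjusted p = 0.00494). It had 1237, 1197 and 1104 scaled exon reads at 0 h, 1272, 1324 and 1277 at 12 h, 1352, 1359.6 and 1320.2 at 24 h, and 1557, 1576 and 1535 at 96 h, with every induced library above 0 h. The log2 fold was 0.13 at 12 h, 0.19 at 24 h and 0.40 at 96 h (SE 0.0381, limma adjusted p = 6.43e-08). The 12 h call (adjusted p = 0.0401) was lost without any replicate of 12 h and without replicate 2 or 3 of 0 h (adjusted p between 0.0779 and 0.233).

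Syt1, the fast calcium sensor of neurons and chromaffin cells, averaged 0.263 ± 0.00692 FPKM in Pax7 cells and 0.185 ± 0.00433 FPKM in Neo cells (log2 fold 0.35, limma adjusted p = 0.0188). Leaving out any single library of the 4 ended that call (adjusted p between 0.0756 and 0.0905). The Neo SD of Syt1 arises only from the TMM factors and does not measure the spread of replicates. In ER-Pax7 cells Syt1 averaged 838 ± 37.6 scaled exon reads at 96 h and 691 ± 11.8 at 0 h (log2 fold 0.28, SE 0.0447, limma adjusted p = 6.47e-05).

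Syt4, abundant in neuroendocrine cells and the 8th member by level per kilobase at 0 h, fell early and came back. It had 1642, 1744 and 1661 scaled exon reads at 0 h, 1416, 1443 and 1464 at 12 h, 1526, 1541 and 1513 at 24 h, and 1646, 1652 and 1697 at 96 h. The libraries of 12 and 24 h lay under all of 0 h, and those of 96 h were among them. The log2 fold against 0 h was -0.22 at 12 h (SE 0.0326, limma adjusted p = 9.91e-05), -0.14 at 24 h and -0.01 at 96 h (not called). Between 24 and 96 h it rose by 0.13 (limma adjusted p = 0.014; 0.0644 without replicate 3 of 96 h). Exons of an antisense gene overlap 14.5% of the Syt4 exons, counted without strand.

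Syt7, the high-affinity calcium sensor of granule release, fell at all 3 times, to 2693 ± 35.0 scaled exon reads at 96 h, against 3061 ± 26.9 at 0 h (log2 fold -0.18, SE 0.0312, limma adjusted p = 0.000105). Syt13, which lacks calcium binding, averaged 926 ± 14.6 at 96 h and 1176 ± 22.6 at 0 h (log2 fold -0.34, SE 0.033, limma adjusted p = 7.16e-08). Syt17 was called at 12 h and not at the later times, with 26.98, 32.5 and 24.8 scaled exon reads, against 21.1, 22.8 and 16.8 at 0 h (log2 fold 0.46, SE 0.125, limma adjusted p = 0.0285). The call was lost without replicate 1 or 2 of 12 h or replicate 3 of 0 h (adjusted p between 0.0603 and 0.157).

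Among priming factors, Unc13a (Munc13-1), which opens syntaxin for SNARE assembly, had 7.41 and 7.93 FPKM in Pax7 cells, against 5.76 and 5.62 FPKM in Neo cells (log2 fold 0.42, SE 0.0447, limma adjusted p = 0.00755). Another gene overlaps 4.8% of its exons. At 96 h against 0 h it averaged 2703 ± 187 and 2586 ± 117 scaled exon reads, a log2 fold of 0.06 (SE 0.0597) that was not called. Cadps (CAPS1), the priming factor of dense-core granules, had a log2 fold of -0.17 at 96 h (limma adjusted p = 0.00396) and Unc13b of -0.13 (limma adjusted p = 0.0186; up to 0.101 without replicate 2 of 96 h or replicate 3 of 0 h).

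Of 24 syntaxins, Snaps and Vamps tested in ER-Pax7 cells, 3 were called at 12 h (12.5%, beside 6.53% of all genes), 5 at 24 h (20.8%, beside 13.6%) and 5 at 96 h (20.8%, beside 33.8%). In Pax7 against Neo cells 5 of 22 were, or 22.7%, beside 36.6% of all genes. Snap25, the plasma membrane SNARE and the leading member by level per kilobase at each time, had 2222, 2336 and 2269 scaled exon reads at 0 h, 1969, 2144 and 1932 at 12 h, 1882, 1982 and 1925 at 24 h, and 1918, 1960.1 and 1909 at 96 h. The induced libraries were all under those of 0 h, with a log2 fold of -0.18 at 12 h and of -0.24 at both 24 and 96 h (SE 0.0382, limma adjusted p = 5.85e-05 at 96 h). In Pax7 cells it averaged 2.99 ± 0.0392 FPKM and in Neo cells 2.76 ± 0.0806 FPKM, a log2 fold of 0.11 that was not called.

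Of 14 syntaxins tested in the ER-Pax7 cells, 3 (21.4%) were called at 96 h, a smaller share than the 33.8% of all genes: Stx7, an endosomal syntaxin, at -0.29 (limma adjusted p = 7.32e-06), Stx2 at -0.22 (limma adjusted p = 0.000796) and Stx5a, a Golgi syntaxin, at 0.14 (limma adjusted p = 0.0145; 0.095 without replicate 1 of 96 h). Stx1a, the syntaxin of neuronal release, had 1.11 ± 0.404 scaled exon reads at 0 h, or 0.538 ± 0.196 per kilobase. Per kilobase, Stx3 and Stx4a stood higher, at 78.7 ± 1.61 and 77.7 ± 8.77 at 0 h, and neither was called in any comparison against 0 h. Stx2 stood above both, at 154 ± 5.17 per kilobase at 0 h. No Vamp was called in the constitutive cells, and at 96 h Vamp3 was the only one, at -0.13 (limma adjusted p = 0.00808; 0.057 without replicate 1 of 96 h). Vamp2, the granule Vamp of neurons and endocrine cells, averaged 80.1 ± 8.63 scaled exon reads at 96 h and 76.5 ± 7.07 at 0 h.

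Stxbp6 (amisyn), which binds syntaxin with Snap25 in place of a Vamp, had the lowest level of the called members: 9.55, 4.43 and 7.44 scaled exon reads at 0 h, 2.57, 2.92 and 2.38 at 12 h, 1.38, 2.98 and 3.35 at 24 h, and 3.50, 3.91 and 1.89 at 96 h. All induced libraries were below those of 0 h. Its log2 fold was -1.12 at 12 h, -1.19 at 24 h and -0.97 at 96 h (SE 0.264, limma adjusted p = 0.0104, 0.00371 and 0.00688). The 12 h call was lost without replicate 1 of 0 h (adjusted p = 0.0751) and the 96 h call without replicate 3 of 96 h (adjusted p = 0.0541), and the gene is listed at 0 in all 4 Pax7 and Neo libraries.

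A pair of members was called in opposite directions. Cplx2, the complexin of endocrine cells that clamps and promotes SNARE zippering, had 27.7 and 28.7 FPKM in Pax7 cells, against 22.5 and 22.3 FPKM in Neo cells (log2 fold 0.33, SE 0.0312, limma adjusted p = 0.00626). In ER-Pax7 cells it had 3113, 2933 and 3181 scaled exon reads at 96 h, against 3774, 3668 and 3638 at 0 h (log2 fold -0.26, SE 0.0388, limma adjusted p = 2.04e-05). Stxbp2 (Munc18-2) averaged 7.25 ± 0.327 FPKM in Pax7 cells and 6.37 ± 0.0909 FPKM in Neo cells (log2 fold 0.18, limma adjusted p = 0.0384), and 511 ± 35.3 scaled exon reads at 96 h and 562 ± 6.28 at 0 h (log2 fold -0.14, limma adjusted p = 0.0227). The Stxbp2 calls were both lost when single libraries were left out: the first without any of the 4, and the second without replicate 2 or 3 of 96 h or replicate 1 of 0 h (adjusted p up to 0.145 and 0.17). The difference between the systems was not tested, since the tables differ in what they count.

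**Figure D3:**
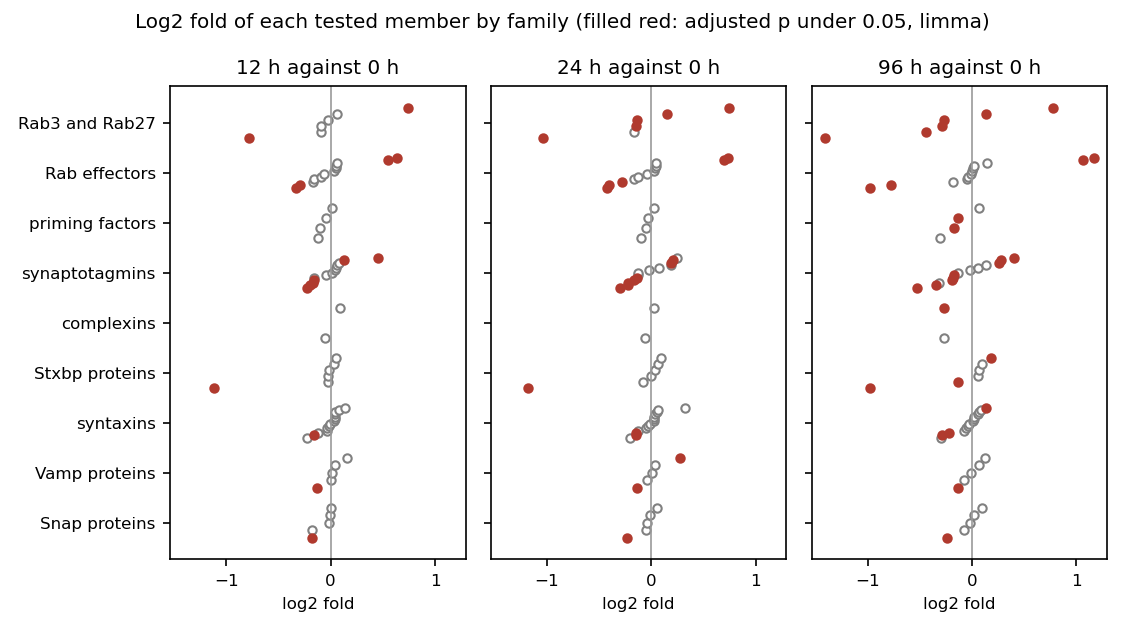
Log2 fold against 0 h (x axis) of each tested member, by family (rows), at 12, 24 and 96 h in ER-Pax7 cells; filled red points passed an adjusted p of 0.05 (limma). The Rab3 and Rab27 genes and the Rab effectors spread between -1.41 and 1.17 at 96 h, while the syntaxins stay between -0.29 and 0.14.

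Counted over families, 21 of the 57 members tested in the constitutive cells were called, or 36.8%, with 14 higher and 7 lower. Of all 13393 genes tested there 36.6% were called, 18.1% higher and 18.5% lower, so the members' share was near that of the whole table. The median log2 fold was 0.08 over the members and 0.00 over all genes. Scaled by library totals rather than TMM, 18 members were higher and 5 lower, beside 2600 higher and 1241 lower genes in all, where TMM gave 2424 and 2482. The calls of Cplx2, Doc2b, Rab27a, Rab27b, Rab3a, Rims3, Syt11, Syt5, Sytl4 and Unc13a were kept whichever library was left out. The other 11 were lost without 3 or 4 of the libraries (adjusted p up to 0.184), and among them were Rims2 (log2 fold 0.20), Stx12 (0.18), Stx16 (-0.18), Stx7 (-0.14), Snap29 (0.27) and Stx5a (0.27). The count of called members was 10 without Pax7 replicate 2, 12 without Neo replicate 1 and 10 without Neo replicate 2. The authors' deposited table gives 24 genes an FDR under 0.05 for this pair, and no member was among them. It gives a log2 fold of 0 to Rab27b, Doc2b and Syt1 and of -3.17 to Rims3. Its count and the limma count thus do not rest on like values.

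A total of 67 members were tested in the ER-Pax7 table. At 12 h against 0 h 16 were called, 5 higher and 11 lower, or 23.9%, beside 6.53% of all genes (2.92% higher, 3.61% lower); without 12 h replicate 2, the library with more Rn45s, 13 were. At 24 h against 0 h 23 were called, 7 higher and 16 lower, or 34.3%, beside 13.6% of all genes (5.66% higher, 7.92% lower). At 96 h against 0 h 29 were called, 9 higher and 20 lower, or 43.3%, beside 33.8% (16.5% higher, 17.3% lower). At 96 h against 24 h 13 were called, 4 higher and 9 lower, or 19.4%, beside 12.6% (6.03% higher, 6.62% lower), and the count was 8 without replicate 2 or 3 of 96 h. The members' median log2 fold at 96 h against 0 h was -0.03, and that of all genes 0.00. The authors' deposited table gave an FDR under 0.05 to 2 higher and 6 lower members at 12 h, 4 and 7 at 24 h, and 6 and 14 at 96 h.

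Of the 33 members called at any time against 0 h, 13 were called at all 3 times, 8 were called at 24 h and not at 12 h, and 9 were called at 96 h and at neither earlier time. The 3 called at 12 h and not at 96 h were Doc2b, Syt17 and Syt4. Rab27a had 95.2% of its 96 h log2 fold at 12 h, Rab27b 55.5%, Sytl2 47.3%, Sytl4 42.6% and Rims3 17.4%. These 3 comparisons share the libraries of 0 h.

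**Figure D4:**
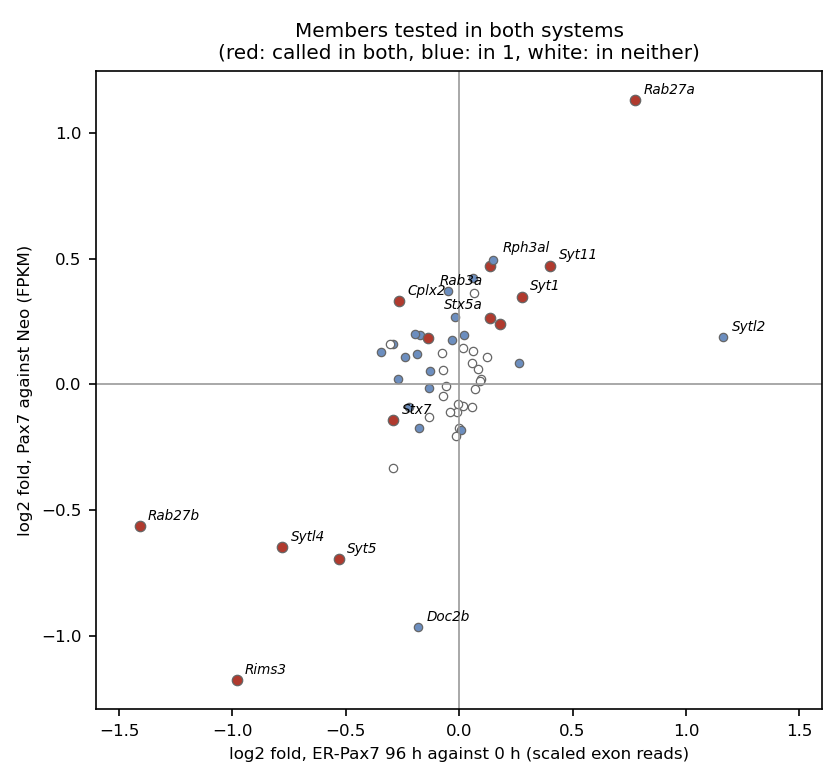
Log2 fold of Pax7 against Neo cells (y axis, FPKM) over that of ER-Pax7 at 96 h against 0 h (x axis, scaled exon reads) for the 57 members tested in both; red points were called in both, blue in 1 and white in neither. Rab27a lies far up and right at 1.13 and 0.78, Rab27b, Sytl4, Syt5 and Rims3 lie down and left, Cplx2 lies up and left, and Sytl2 has 0.19 on the y axis and 1.17 on the x axis.

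Between the 2 systems, which share no library, 13 of the 57 members tested in both were called in both: 6 higher in both, 5 lower in both and 2 in opposite directions. That is 84.6% with the same direction among the 13, and among the 2320 of all genes called in both it was 87.4%. Among the 6 were Rab27a, Rab3a, Syt11, Syt1 and Stx5a, and the 5 were Rab27b, Sytl4, Rims3, Syt5 and Stx7.

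The 15 members that reached the tested level in neither table had at most 0.848 scaled exon reads in any library. Stx11, Syt8, Syt10, Sytl5 and Vamp7 are listed at 0 in all 16 libraries. Vamp7 was counted on the sequence X_GL456233_random, which is not part of an assembled chromosome. Its 0 may therefore not mean that the transcript is absent, which was not tested. A further 10 members were tested in the ER-Pax7 table alone, among them Exph5, Stxbp6, Rab3b and Syt17.

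The other genes of the release pathway were read from 4 lists, beside 33.8% of all genes called at 96 h against 0 h and 36.6% in Pax7 against Neo. Of 11 regulators and motors of Rab3 and Rab27, 5 rose and none fell at 96 h against 0 h, with Rabif at 0.19, Rab3gap1 at 0.18 and Myo5a, the actin motor that carries Rab27a organelles, at 0.13. In Pax7 against Neo cells, of 10 tested 3 rose and 1 fell, with Madd, the exchange factor that loads Rab3 and Rab27 with GTP, at 0.36, Myo5a at 0.26 and Rab3gap1 at 0.18. The called genes were 45.5% of those tested at 96 h and 40% in Pax7 against Neo, and the median log2 fold was 0.07 and 0.10 in the 2 comparisons.

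Of 15 tested active zone and vesicle proteins 3 rose and 1 fell at 96 h (26.7%, beside 33.8% of all genes), with a median of 0.01. Sv2c, a vesicle glycoprotein, rose to 234 ± 8.08 scaled exon reads at 96 h, against 119 ± 8.82 at 0 h (log2 fold 0.98, SE 0.0584), Pclo (piccolo) rose by 0.30 on the log2 scale and Syn2, a synapsin, fell by 0.36. Sv2c averaged 0.199 ± 0.0155 FPKM in Pax7 cells and 0.0719 ± 0.00168 FPKM in Neo cells. The Neo SD of Sv2c arises only from the TMM factors. Sv2c passed the filter on low FPKM only through the Pax7 libraries, so no test is given for it there. Syn3 of the same list also passed only so, with a highest deposited value of 0.1 FPKM in Pax7 cells and 0.08 FPKM in Neo cells. The calls of this list in Pax7 against Neo are therefore not counted here. Of 14 SNARE disassembly and exocyst genes 5 rose and 1 fell at 96 h (42.9%, beside 33.8%), the largest being Exoc3l at 0.28, and 1 rose among 13 tested in the constitutive cells (7.69%, beside 36.6%). Of 17 SNAREs and SM proteins of other steps 3 rose and 3 fell at 96 h, led by Sec22a at 0.37, and 4 rose and 2 fell in the constitutive cells. Both counts are 35.3% of the list, near the share of all genes.

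Markers of the melanotrope and of other cells moved beside these genes. The summed level of 5 melanotrope markers lay between 3.95 and 3.96 FPKM in Pax7 cells and between 0.596 and 0.658 FPKM in Neo cells, and between 2583 and 2767 scaled exon reads at 96 h and between 2007 and 2196 at 0 h, with Drd2 at 0 in all of these libraries. The 10 fibroblast, endothelial and leukocyte markers summed to between 0.823 and 1.02 FPKM in Pax7 cells and between 1.17 and 1.23 FPKM in Neo cells, and to between 75.4 and 78.5 scaled exon reads at 96 h and between 96.2 and 103 at 0 h. The 7 corticotrope markers summed to between 2350 and 2494 FPKM in Pax7 cells and between 2551 and 2555 FPKM in Neo cells. In ER-Pax7 cells their sum lay between 105260 and 110190 scaled exon reads at 0 h, 93903 and 99208 at 12 h, 87179 and 89330 at 24 h, and 104290 and 111478 at 96 h, so 12 and 24 h lay under 0 h and 96 h overlapped it. The 8 markers of other pituitary lineages summed to between 4.24 and 5.03 scaled exon reads at 96 h and between 7.91 and 8.33 at 0 h, and to between 0.248 and 0.430 FPKM in Pax7 cells and between 0.387 and 0.414 FPKM in Neo cells. A sum follows its most abundant markers. At 96 h against 0 h, 4 of the 7 corticotrope markers were called higher and 2 lower (85.7%, beside 33.8% of all genes). Their log2 folds lay between -0.54 and 0.30. The 4 melanotrope markers tested in ER-Pax7 cells had log2 folds between 0.09 and 5.57 at 96 h against 0 h. The part of the markers of these lists in the changes of the members was not tested. In bulk RNA, fewer cells with a transcript and less of it per cell cannot be told apart.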

How the data were processed

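The 16 libraries were made from total RNA after ribosomal depletion and read as 50 bp pairs, per the labels' protocols. The submitters' processing notes name mm10 (GRCm38), TopHat, HOMER and edgeR, with no version. For ER-Pax7 the authors counted exon reads per RefSeq gene with HOMER, without a strand option, and deposited them as signal values scaled to a common library total, as the file headers and column sums show. For Pax7 and Neo they deposited FPKM over gene bodies, per the file headers, to 2 decimals. At low FPKM, libraries with the same rounded value differ here only through their TMM factors. The 2 Neo libraries do so for Syt16, Syt1, Sv2c and Rph3al, among others. The SD of such a gene does not measure the spread of replicates, and its SE has the same limit. Log2 fold and p-value columns of the authors' own comparisons, from HOMER's edgeR step per the file headers, serve for comparison only.

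Low ER-Pax7 values came out as whole reads in 100% of cases, within a tolerance of 0.1 reads, and edgeR 4.0.16 on these reads called 15, 23 and 29 members at 12, 24 and 96 h. Reads carry no molecular identifiers, and FPKM depth was not used.

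Values were divided by TMM factors, and genes with 1 scaled exon read in at least 3 libraries or 0.1 FPKM in at least 2 were tested with limma 3.58.1 (R 4.3.3, empirical Bayes with trend, all 12 ER-Pax7 libraries in 1 model), with Benjamini-Hochberg adjustment over all genes and a threshold of 0.05. The count test planned first was replaced because neither table holds raw counts. The script was tested on simulated data. No exact permutation test was run, since its smallest p is 0.1 for 3 libraries a group and 0.333 for 2.

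Rab27a and Sytl4 are named throughout, and other members if called without overlap of the groups and among the largest log2 folds of their comparison, or called in opposite directions, and others beside paralogues. Some single members are counted but not reported here. The members and lists were chosen with earlier results of these data known. Levels per kilobase use the exon lengths of the table, and overlaps use GENCODE gene models of the same build. Alternatives were library totals, other pseudocounts, no filter, a replicate block, limma without trend, 2 groups alone, edgeR, DESeq2 1.42.0 and leaving out each library.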

Additional observations from a re-analysis of the deposited data

Results flagged for a closer look

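For 11 members the libraries of the 2 systems moved in opposite directions without overlap: every Pax7 library was above every Neo library, and every 96 h library was below every 0 h library. They were 19.3% of the 57 members tested in both systems, a share that counts Syt16, whose limit is given below. Of the 12992 genes tested in both systems, 576 (4.43%) had this order without overlap. In either order 1121 genes (8.63%) had opposite directions without overlap. No overlap at all was seen for 73.8% of the genes tested in Pax7 against Neo (2 libraries against 2) and 45.9% of those at 96 h. The difference between the systems was not tested. Of the 11, 2 were called in both, Cplx2 (log2 fold 0.33 in Pax7 against Neo, -0.26 at 96 h against 0 h) and Stxbp2 (0.18 and -0.14). Stx12 was called in Pax7 against Neo and not at 96 h (0.18 and -0.03). Syt13 (0.13 and -0.34), Rab3c (0.16 and -0.29), Snap25 (0.11 and -0.24), Syt7 (0.12 and -0.18), Cadps (0.20 and -0.17) and Unc13b (0.054 and -0.13) were called at 96 h and not in Pax7 against Neo. Stx3 was called in neither (0.12 and -0.08). Syt16 (0.20 and -0.20) was called at 96 h, and its deposited FPKM, 0.1 in both Pax7 libraries and 0.07 in both Neo libraries, passed the filter on low values only through the Pax7 libraries. Unc13b had 0.297 and 0.298 FPKM in Pax7 cells, against 0.283 and 0.282 FPKM in Neo cells. Cadps had 0.134 and 0.119 FPKM in Pax7 cells, against 0.091 and 0.104 FPKM in Neo cells. Both orders rest on small gaps between values deposited to 2 decimals.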

How the results depend on the processing

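Of the 1518 gene-level values of named members recomputed under the alternatives, 1432 stayed on their side of the threshold. No named member changed direction where the main fit or the alternative called it. Changes of direction where neither called it were not counted. Leaving out single libraries gave between 10 and 14 called members for Pax7 against Neo (21 with all), 11 to 15 at 12 h (16), 18 to 20 at 24 h (23), 25 to 30 at 96 h (29), 0 to 1 for 24 h against 12 h (1) and 8 to 11 for 96 h against 24 h (13); where an arm then held 1 library, it is assumed to vary like the others. For 24 h against 12 h no member was called with those 2 groups alone (count 0) and 2 with DESeq2, which added Sytl2 (adjusted p = 0.0211); the cause was not tested. Correlations between the deviations of same-numbered libraries lay between -0.082 and 0.144 in ER-Pax7 cells, 14 of 18 above 0. In Pax7 and Neo they were at 0.037. Only replicate 2 of 12 h with replicate 2 of 24 h passed 0.1, so the numbers were not taken as pairs. Among 0, 12 and 96 h all 9 were above 0 (0.014 to 0.088), and a library correlated best with its own number in 23 of 36 cases, a hint from the data only. A replicate block gave 14, 17, 23, 31, 1 and 13 called members, in the order of 21, 16, 23, 29, 1 and 13 without it, and 1246 genes in all against 992 at 12 h and 2538 against 2063 at 24 h; Stxbp2 and Sytl1 lost their Pax7 against Neo calls (adjusted p = 0.0556 and 0.0591). Without the low-value filter 18 of the 21 Pax7 against Neo calls, 12 of 16 at 12 h, 20 of 23 at 24 h and 28 of 29 at 96 h were kept; among those lost were Stxbp2 and Sytl1, then Doc2b, Syt11 and Syt17, then Rab3a. FPKM with 2 libraries a group limits Pax7 against Neo.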
